A study of Mus musculus with 7 samples.

Results

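Osteoblasts are the cells that build bone, and 8 genes that mark their differentiation were followed here in cortical bone of mice. They were 5 transcription factor genes, Runx2, Sp7, Dlx3, Dlx5 and Msx2, and the 3 mouse osteocalcin genes, Bglap, Bglap2 and Bglap3. The rule that picks them is the gene symbol, but the set was put together with earlier results of these data known. Each symbol matched 1 of the 27179 Entrez genes counted in every library. After the filter on low counts and gene class, 7 of the 8 were among the 15098 genes tested, and Msx2 was not. RNA was sequenced from femora of 12-week-old female mice on a C57BL/6 background, whose ends had been cut off and whose marrow had been flushed out. There were 3 mice of genotype Dmp1Cre.EfnB2f/f and 4 control mice of genotype Dmp1Cre. Both groups carried a Cre recombinase driven by the Dmp1 promoter, which is active in late osteoblasts and osteocytes, and only the first group carried the floxed EfnB2 alleles. The methods call the controls cousin-bred, and the labels name the parent cross of each mouse. A single cross gave Dmp1Cre.EfnB2f/f mice 1 and 2, and another gave controls 1 and 2. The parents of Dmp1Cre.EfnB2f/f mouse 3 were also those of control 3, and control 4 had parents of its own.

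Runx2 is the transcription factor without which the osteoblast lineage does not form, and Sp7 (osterix) acts after it in the commitment of those cells. Dlx3, Dlx5 and Msx2 are homeodomain factors of the same lineage, and Dlx and Msx proteins bind related DNA sites with often opposed effects on osteocalcin transcription. Osteocalcin is a small protein made by mature osteoblasts that binds bone mineral after vitamin K-dependent carboxylation of glutamate residues. In the mouse Bglap and Bglap2 encode the bone protein, and Bglap3 is a related neighbour known mainly from tissues outside bone.

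Library totals were 18119947 to 19119250 counts for Dmp1Cre.EfnB2f/f and 17245556 to 22075778 counts for the controls. Every pair of libraries of 1 genotype differed by more than sampling noise. Efnb2, the targeted gene, averaged 14.3 ± 3.21 CPM (SD, n = 3) under the label Dmp1Cre.EfnB2f/f, against 7.30 ± 1.07 CPM (SD, n = 4) for controls. CPM are counts scaled to library size, here by the TMM method. Each library of the first label was above each control, and groups did not overlap in 11.3% of all genes. The log2 fold change was 0.96, and the adjusted p of the edgeR test described below was 0.511. The two-sided exact permutation test gave p = 0.0286, the smallest value it can give. A higher level goes against the direction of a deletion. The counts cover the whole gene and not the deleted part alone, and the cause of the difference was not tested. The study reported loss of Efnb2 in sorted osteocytes, by PCR of the targeted part, and its presence in cells other than osteocytes. The counts here are of whole flushed bone. The groups are therefore called by their labels, and the libraries labelled Dmp1Cre.EfnB2f/f are the f/f-labelled libraries from here on. On the first principal component of log2 CPM, which held 53.9% of the variance, controls 1 and 4 stood apart with scores of 43.9 and 68.8, against -41.4 to -1.76 for the other 5 libraries. The fold changes of the members, and the medians of the gene lists whose sign or size turned on these controls, are given with and without them. The mice were collected on 2 days. By the methods, 2 Dmp1Cre.EfnB2f/f and 3 control mice came from day 1, and 1 mouse of each genotype from day 2. Which library came from which day is not given in the sources used here, so day could not be a term of any fit. Its part in the values was not tested.

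The 3 osteocalcin genes are neighbours on chromosome 3, all on the minus strand of GRCm38. Bglap (Entrez gene 12096) runs from 88383495 to 88384466, Bglap2 (12097) from 88377736 to 88378701 and Bglap3 (12095) from 88368616 to 88372741. Their coding sequences are shown because the counts of these genes can be kept apart only where the sequences differ. Each is 285 bases long in the GENCODE M21 annotation of GRCm38, without the stop codon. Capitals mark bases that differ from Bglap.
Bglap: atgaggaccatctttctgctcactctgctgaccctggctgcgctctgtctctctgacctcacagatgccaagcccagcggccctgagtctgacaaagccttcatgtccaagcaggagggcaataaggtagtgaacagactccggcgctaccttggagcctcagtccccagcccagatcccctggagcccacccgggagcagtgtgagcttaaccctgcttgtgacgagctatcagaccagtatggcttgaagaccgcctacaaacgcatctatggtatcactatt
Bglap2: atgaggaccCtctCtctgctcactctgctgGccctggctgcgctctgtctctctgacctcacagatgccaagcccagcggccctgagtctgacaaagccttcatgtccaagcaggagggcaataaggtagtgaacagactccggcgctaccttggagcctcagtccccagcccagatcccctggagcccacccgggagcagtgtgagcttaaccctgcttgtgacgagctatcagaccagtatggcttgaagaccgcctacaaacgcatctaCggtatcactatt
Bglap3: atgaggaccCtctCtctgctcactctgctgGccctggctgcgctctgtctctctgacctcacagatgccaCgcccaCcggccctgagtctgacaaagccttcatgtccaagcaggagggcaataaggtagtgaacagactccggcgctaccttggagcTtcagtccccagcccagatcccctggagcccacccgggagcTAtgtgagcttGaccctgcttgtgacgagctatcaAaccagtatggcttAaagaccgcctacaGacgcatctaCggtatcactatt

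The coding sequence of Bglap2 differed from that of Bglap at 4 of 285 bases (98.6% identity), and that of Bglap3 at 13 (95.4% identity). Of the 341 windows of 100 bases, the length of 1 read, in the 440-base transcript Bglap-201, 192 (56.3%) occurred unchanged in Bglap2-201, and the longest shared run was 241 bases. Bglap and Bglap3 shared 0 such windows, and Bglap2 and Bglap3 shared 20. Whether reads that fit more than 1 place were counted is not given in the sources used here. The split of reads between Bglap and Bglap2 is therefore uncertain. Their sum does not depend on that split, but it would be too low if such reads were left out. The windows are those of 1 read, while the reads were paired.

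The bases upstream of Bglap are shown because this promoter is the classical target of the factors described here. The sequence is from RefSeq (GRCm38.p6, minus strand, chr3:88384467-88384716). A search of both strands for ACCACA, the core bound by Runx proteins, and CAATTA, a core bound by homeodomain proteins, found 1 match to each, in capitals.
Bglap upstream: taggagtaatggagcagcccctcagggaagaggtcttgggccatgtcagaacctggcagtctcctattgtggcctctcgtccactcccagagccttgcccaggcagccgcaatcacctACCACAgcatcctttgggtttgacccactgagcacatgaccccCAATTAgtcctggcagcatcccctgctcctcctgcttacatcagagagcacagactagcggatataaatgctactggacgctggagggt

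The matches began 132 and 89 bases before the start of transcription. In the 300-base windows around the start of transcription, 5506 of 32851 mouse promoters (16.8%) hold ACCACA and 2628 hold CAATTA, so a single match is common. Of the 8 genes, 4 had a promoter in the table used. The window of Runx2 (chr17:44814578-44814877) held 3 matches to ACCACA and 0 to CAATTA. Those of Bglap3, which has 3 annotated starts, and of Msx2 held 0 matches to either. These matches describe letters and do not show binding.

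Levels of different genes were compared per length, as RPKM (CPM divided by the counted length in kilobases), over all 7 libraries. Bglap was highest at 805 ± 550 RPKM (SD, n = 7), followed by Bglap2 at 402 ± 267 RPKM. Both were far above the factors: Sp7 was at 13.8 ± 6.66 RPKM and Runx2 at 11.5 ± 1.33 RPKM. Bglap3 was at 3.81 ± 2.34 RPKM, Dlx5 at 2.76 ± 1.15 RPKM and Dlx3 at 1.89 ± 1.13 RPKM. Msx2 was last, at 0.0179 RPKM. The order Bglap, Bglap2, then the factors held in 7 of 7 libraries. Sp7 was above Runx2 in 3 of 7, Bglap3 above Dlx5 in 5 of 7 and Dlx5 above Dlx3 in 6 of 7, and each of these pairs lay closer together than its spread.

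**Figure D1:**
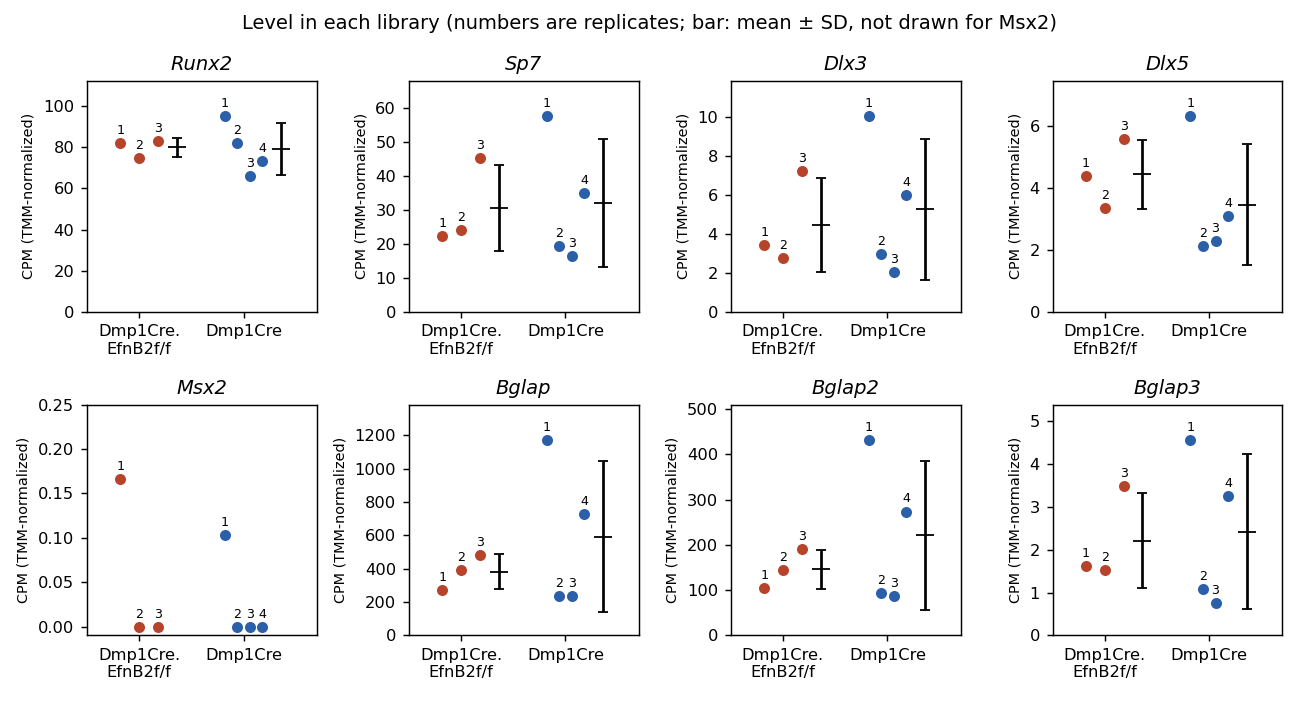
Level of each of the 8 genes (y axis, TMM-normalized CPM) in every library of the 2 genotypes (x axis), with the replicate number at each point and the group mean ± SD as a bar. The groups overlap in all 8 genes, control 1 is the highest point in the 7 tested ones, and Msx2 has counts in 2 libraries only, so no bar is drawn for it.

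The question put to the data was whether these genes differed between bone of Dmp1Cre.EfnB2f/f and of control mice. By edgeR's quasi-likelihood test, adjusted over the table by the Benjamini-Hochberg method, 0 of the 7 genes passed, beside 0% of all 15098 genes. At an unadjusted p under 0.05 the count was also 0 of 7, against 9.66% of all genes (4.63% higher and 5.03% lower). The groups overlapped in 7 of 7 genes, and groups did not overlap in 11.3% of all genes. DESeq2 and the limma pipeline described in the study, run without its day block, also called 0 of the 7. Over the whole table DESeq2 called 24 genes higher and 48 lower, and the limma pipeline 1131 higher and 1115 lower. Run without its sample weights, the limma pipeline called 0 genes in either direction.

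Runx2 (Entrez gene 12393, chromosome 17, 44495987 to 44814797) was at 82.2, 74.6 and 83.0 CPM in the f/f-labelled libraries and at 95.1, 82.3, 66.2 and 73.3 CPM in the controls. The controls spanned the other group entirely. The means were 79.9 ± 4.61 CPM (SD, n = 3) and 79.2 ± 12.5 CPM (SD, n = 4), and their log2 fold change was 0.01 (SE 0.17, 95% interval -0.37 to 0.39, adjusted p = 0.977). This interval is the narrowest of the 7 genes. Its exons overlap those of Runx2os1, an antisense gene, and since no strand setting is given, reads of the pair cannot be told apart.

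Sp7 (Entrez gene 170574, chromosome 15, 102356603 to 102367035) was at 22.4, 24.0 and 45.2 CPM in the f/f-labelled libraries and at 57.5, 19.5, 16.4 and 34.996 CPM in the controls. Control 1 and Dmp1Cre.EfnB2f/f 3 were high and control 3 was low, so the spread ran within both groups. The log2 fold change was -0.07 (SE 0.45, 95% interval -1.10 to 0.95, adjusted p = 0.95).

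Dlx3 (Entrez gene 13393, chromosome 11, 95120117 to 95125296) was counted 62, 50 and 137 times in the f/f-labelled libraries and 194, 52, 35 and 110 times in the controls. These counts correspond to 3.45, 2.74 and 7.22 CPM against 10.05, 2.97, 2.05 and 5.98 CPM. The same libraries were high as for Sp7. Between genotypes the log2 fold change was -0.24 (SE 0.56, 95% interval -1.51 to 1.04, adjusted p = 0.854).

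Dlx5 (Entrez gene 13395, chromosome 6, 6877801 to 6882068) was at 4.39, 3.35 and 5.59 CPM in the f/f-labelled libraries and at 6.32, 2.11, 2.28 and 3.10 CPM in the controls. Each of the former was above controls 2, 3 and 4 and below control 1. For Dlx5 the log2 fold change was 0.36 (SE 0.41, 95% interval -0.57 to 1.29, adjusted p = 0.697), and the two-sided exact permutation test over the 35 splits gave p = 0.457. Dlx5 was the single tested gene of the 7 whose fold change kept its sign in all 19 alternative analyses, in which the adjusted p ranged from 0.137 to 1.00. Its size depended on single libraries. Without control 1 the log2 fold change was 0.83 (SE 0.28, adjusted p = 0.402), and the lowest value, 0.16, came without Dmp1Cre.EfnB2f/f 3.

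Msx2 (Entrez gene 17702, chromosome 13, 53466881 to 53472780) had 3, 0 and 0 counts in the f/f-labelled libraries and 2, 0, 0 and 0 in the controls. The limit of 3 counts that a count of 0 allows corresponds to 0.155 to 0.176 CPM per library, so Msx2 was at or under that limit in each and no fold change is given.

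Bglap was counted 4917, 7121 and 9150 times in the f/f-labelled libraries and 22618, 4136, 4013 and 13376 times in the controls. In CPM these were 273, 391 and 482 against 1171, 236, 235 and 727. Controls 1 and 4 lay above all 3 of the other group, and controls 2 and 3 below all 3. The means were 382 ± 105 CPM (SD, n = 3) and 592 ± 450 CPM (SD, n = 4). The log2 fold change was -0.63 (SE 0.57, 95% interval -1.94 to 0.67, adjusted p = 0.638), a difference smaller than the spread among the controls.

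Bglap2 was at 104, 144 and 190 CPM in the f/f-labelled libraries and at 432, 94.5, 86.8 and 274 CPM in the controls. The libraries stood in the same order as for Bglap. For Bglap2 the log2 fold change was -0.60 (SE 0.56, 95% interval -1.87 to 0.66, adjusted p = 0.642).

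Bglap3 had 29, 28 and 66 counts in the f/f-labelled libraries and 88, 19, 13 and 60 in the controls, or 1.61, 1.54 and 3.48 CPM against 4.56, 1.08, 0.761 and 3.26 CPM. Here Dmp1Cre.EfnB2f/f 3 lay above control 4. For Bglap3 the log2 fold change was -0.13 (SE 0.62, 95% interval -1.54 to 1.27, adjusted p = 0.929).

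**Figure D2:**
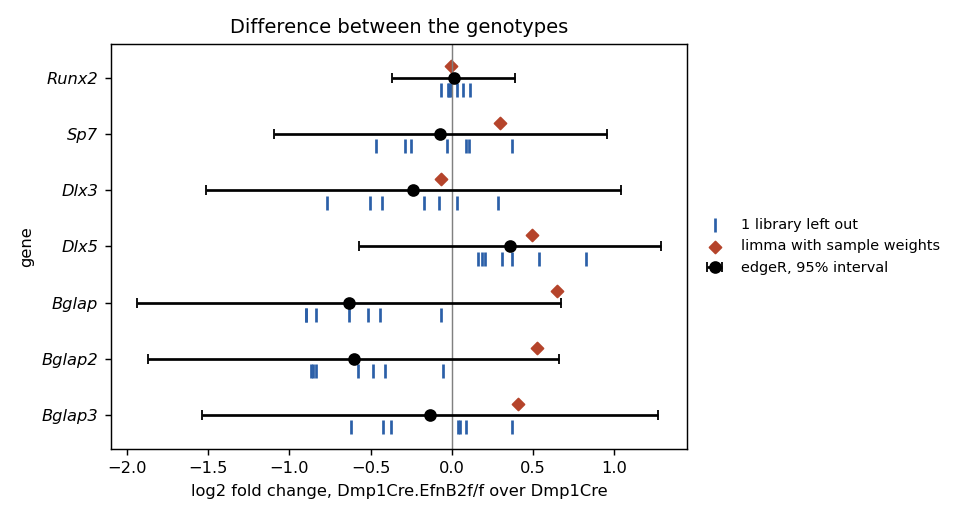
Log2 fold change of the 7 tested genes (x axis, Dmp1Cre.EfnB2f/f over Dmp1Cre; y axis, genes) as estimated by edgeR with its 95% interval, with each of the 7 libraries left out in turn and by the limma pipeline with sample weights. All 7 intervals include 0, and for Bglap and Bglap2 the limma estimate (0.65 and 0.52) has the opposite sign to edgeR's (-0.63 and -0.60).

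The direction of the osteocalcin genes depended on controls 1 and 4. The limma pipeline, whose sample weights were 0.193 and 0.168 for these controls and 0.713 to 7.28 for the other 5 libraries, gave a log2 fold change of 0.65 for Bglap (SE 0.23, limma adjusted p = 0.0860), 0.52 for Bglap2 (SE 0.24, limma adjusted p = 0.160) and 0.50 for Dlx5 (SE 0.21, limma adjusted p = 0.137). By that pipeline 2 of the 7 genes, Bglap and Dlx5, were higher at an unadjusted p under 0.05, beside 15.1% of all genes. Without sample weights, in a run chosen after seeing the data, limma gave log2 fold changes of -0.098 for Bglap, -0.19 for Bglap2 and 0.27 for Dlx5. In that run 0 of the 7 had an unadjusted p under 0.05. With controls 1 and 4 left out of the edgeR fit, a choice made after seeing the data, all 7 genes had a fold change above 0. The log2 values were 0.11 for Runx2, 0.77 for Sp7, 0.84 for Dlx3, 1.02 for Dlx5, 0.70 for Bglap, 0.69 for Bglap2 and 1.26 for Bglap3. In that fit of 3 against 2 libraries 5 of the 7, all but Runx2 and Dlx3, had an unadjusted p under 0.05, beside 10.2% of all genes, and edgeR's adjusted p was 0.164 to 0.281 for these 5. Control 1 held the highest value of each of the 7 genes, so leaving it out raises every fold change by construction. With control 1 alone left out, the log2 fold change was -0.06 for Bglap, -0.05 for Bglap2, 0.37 for Bglap3, 0.37 for Sp7 and 0.28 for Dlx3.

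Dmp1Cre.EfnB2f/f 3 and control 3, which shared a parent cross, are 1 mouse of each genotype and allow no test. Between them the former was 1.25 times the latter for Runx2, 2.76 times for Sp7, 3.52 times for Dlx3, 2.45 times for Dlx5, 2.05 times for Bglap, 2.19 times for Bglap2 and 4.57 times for Bglap3. Control 3 held the lowest value of 6 of the 7 genes, and control 2 that of Dlx5.

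**Figure D3:**
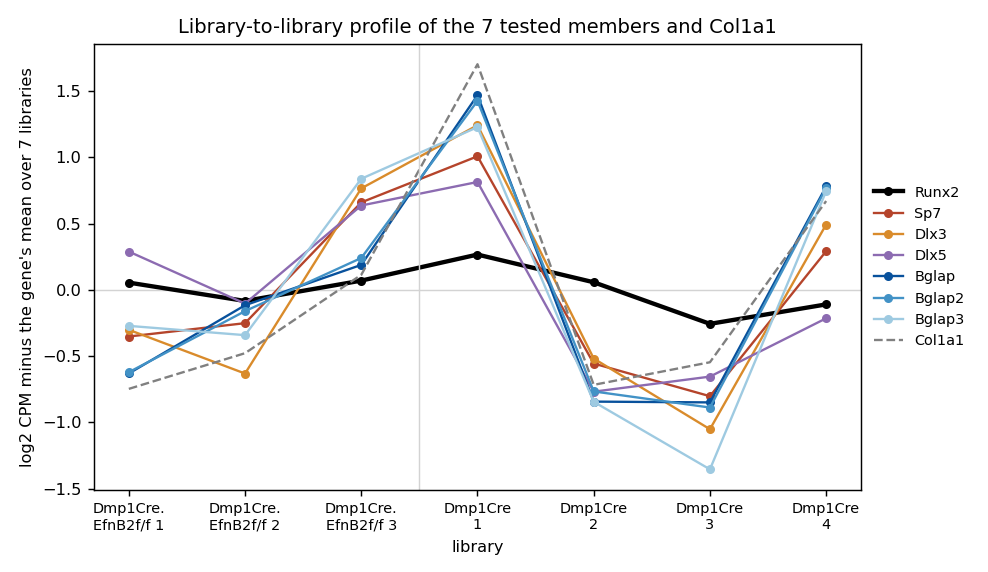
Log2 CPM of the 7 tested genes and of Col1a1 in each of the 7 libraries (x axis), minus the mean of the gene over the 7 (y axis, log2). Control 1 is the highest library for each of the 7 genes, and the line of Runx2 stays within -0.26 to 0.27 while that of Bglap runs from -0.85 to 1.47.

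The genes differed from each other in how far they varied among all 7 libraries. For Runx2 the highest library was 1.44 times the lowest, and the SD of log2 CPM was 0.167, larger than that of 11.4% of the 15098 genes. For Sp7 the range was 3.51-fold and the SD 0.665, larger than that of 89.4% of genes. For Dlx5 the range was 2.99-fold, for Dlx3 4.90-fold, for Bglap 4.99-fold, for Bglap2 4.97-fold and for Bglap3 5.99-fold. Since low counts vary more, each was also set beside genes within a factor of 2 of its own level: the SD was larger than that of 17.6% of such genes for Runx2, 94.7% for Sp7, 92.5% for Dlx3, 75.7% for Dlx5, 95.2% for Bglap, 98.1% for Bglap2 and 92.7% for Bglap3. Runx2 thus varied less than most genes of its level, and the other 6 varied more. In bulk bone fewer osteoblasts and less RNA per osteoblast cannot be told apart.

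For Sp7, Dlx3 and the 3 osteocalcin genes the 3 highest libraries were control 1, control 4 and Dmp1Cre.EfnB2f/f 3, a trio that was also highest for 14.1% of all tested genes. Of 26 genes for bone matrix and the enzymes that assemble it, 23 were highest in control 1. Their summed level was 80080 CPM in control 1 and 38822 CPM in control 4. It was 16774 and 16737 CPM in controls 2 and 3, and 17769, 21526 and 28617 CPM in the f/f-labelled libraries. In the edgeR fit of all 7 libraries 7 of the 26 had a fold change above 0 and 19 below, 0 passed the adjusted test and 0 had an unadjusted p under 0.05, and the median log2 fold change was -0.29 against 0.01 over all genes. The sign of that median turned on control 1: it was 0.27 without control 1, 0.50 without controls 1 and 4, and 0.27 by the limma pipeline, which called 1 of the 26 higher at an adjusted p under 0.05. Col1a1 and Col1a2, the chains of type I collagen, had log2 fold changes of -0.94 (SE 0.62) and -0.78 (SE 0.61) with all libraries.

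Ratios to the matrix genes did not give 1 answer. With each of the 5 genes of that list with the highest CPM as the denominator, in a comparison chosen after seeing the data, the ratio was higher in each f/f-labelled library than in every control for 4 of the 7 genes with Col1a1 (Sp7, Dlx5, Bglap2 and Bglap3), beside 2.27% of all genes. The count was 1 with Col1a2 (Dlx5), beside 1.20%, and 1 with Col11a1 (Dlx5 again), beside 1.07%. It was 0 with Sparc, beside 0.470%, and 0 with Col5a2, beside 0.172%. With Col5a2 the ratio of 1 gene, Bglap2, was lower in each f/f-labelled library than in every control, beside 0.318% of all genes. These shares are over all genes, not over genes that follow the denominator across libraries, so they are not a matched background. The ratio of Sp7 to Col1a1 in RPKM was 0.00659, 0.00586 and 0.00732 in the f/f-labelled libraries and 0.00310, 0.00560, 0.00419 and 0.00385 in the controls. The ratio of Bglap to Col1a1 was 0.294, 0.349 and 0.286 against 0.231, 0.249, 0.220 and 0.293, which overlap.

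Bglap and Bglap2 kept a steady proportion to each other while the sum of the osteocalcin genes moved. The summed count ran from 5509 in control 3 to 31041 in control 1, or 0.0310% to 0.146% of the library. Bglap took 71.2% to 72.9% of that sum, with a mean of 72.1% ± 0.750 (SD, n = 3) in the f/f-labelled libraries and 72.3% ± 0.794 (SD, n = 4) in the controls. Bglap2 took 27.5% ± 0.636 (SD, n = 3) and 27.4% ± 0.765 (SD, n = 4). The exact 95% binomial interval of the share of Bglap, which covers counting error only, was 72.4% to 73.4% in control 1 and 70.0% to 72.3% in control 2, the libraries with the highest and lowest share among the controls. Bglap3 took 0.236% to 0.515%, with means of 0.409% ± 0.115 (SD, n = 3) and 0.293% ± 0.0429 (SD, n = 4). Per length, with counted lengths of 624 bases for Bglap and 471 for Bglap2, Bglap was 1.89 to 2.05 times Bglap2 in all 7 libraries. The transcript Bglap-201 is 440 bases, and this shorter length would give a higher ratio. The ratio of Bglap to Bglap3 ran from 136 to 302, a 2.23-fold range on few Bglap3 counts. That of Bglap to Sp7 ran from 39.1 to 76.0 (1.95-fold), and that of Bglap to Runx2 from 31.8 to 137 (4.30-fold). The shared windows of Bglap and Bglap2 given above bear on the steadiness of their ratio, and their part in it was not tested.

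**Figure D4:**
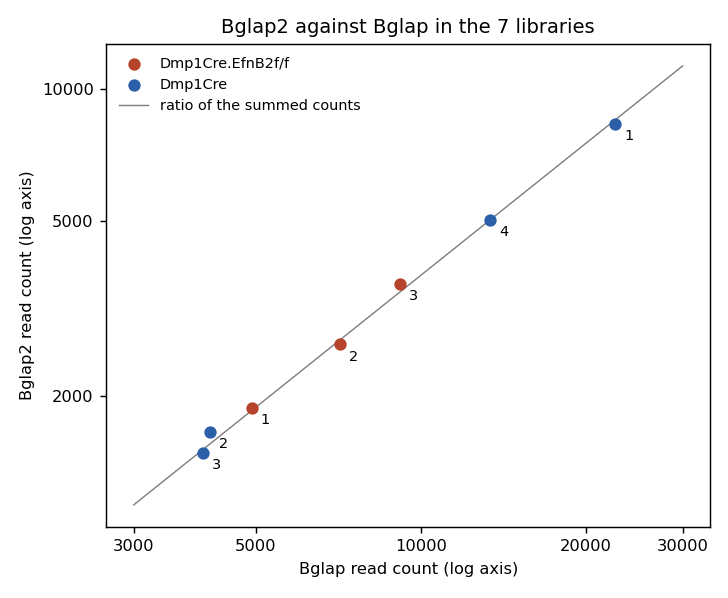
Read counts of Bglap2 (y axis, log scale) against Bglap (x axis, log scale) in the 7 libraries, numbered by replicate, with a line at the ratio of the summed counts. All points lie close to the line from control 3 (4013 and 1483 counts) to control 1 (22618 and 8335 counts), with the 3 f/f-labelled libraries between controls 2 and 4.

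Among 42 other regulators of osteoblast differentiation 35 were tested, of which 20 had a fold change above 0 and 15 below. By edgeR 0 passed the adjusted test, 1 was higher and 2 were lower at an unadjusted p under 0.05 (9.66% of all genes in either direction), and the groups did not overlap for 5 (11.3% of all genes). The median log2 fold change was 0.08, and 0.20 without controls 1 and 4. DESeq2 called 0 of the 35, and the limma pipeline called 4 higher and 2 lower at an adjusted p under 0.05. Smad5, which carries BMP signals into the nucleus, was at 100 ± 1.07 CPM (SD, n = 3) in the f/f-labelled libraries and 74.5 ± 9.15 CPM (SD, n = 4) in the controls, with a log2 fold change of 0.43 (SE 0.15, adjusted p = 0.511). Cebpb, a factor that acts with Runx2 on osteocalcin transcription, had a log2 fold change of -0.58 (SE 0.25, adjusted p = 0.511), and its groups overlapped. Cbfb, the partner subunit of Runx proteins, was at 118 ± 5.68 CPM (SD, n = 3) and 98.7 ± 12.4 CPM (SD, n = 4), with a log2 fold change of 0.26 (SE 0.16, adjusted p = 0.530). Dlx6, the neighbour of Dlx5, had a log2 fold change of 0.54 (SE 0.47), and Msx1 of -0.40 (SE 0.49). Cbfb, Dlx6 and Msx1 were named after their values were seen. Dlx2 had 0 counts in every library, Dlx1 at most 3 and Dlx4 at most 6.

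Of 16 genes of the vitamin K cycle and of osteocalcin processing 15 were tested. The fold change was above 0 for 8 and below 0 for 7, and edgeR gave 0 past the adjusted test, 0 at an unadjusted p under 0.05 and a median log2 fold change of 0.02. That median was 0.19 without controls 1 and 4. DESeq2 called 0 of the 15, and the limma pipeline called 2 higher at an adjusted p under 0.05. The highest in CPM were Gas6, itself a carboxylated protein, with 286 ± 14.3 CPM (SD, n = 3) in the f/f-labelled libraries and 229 ± 61.4 CPM (SD, n = 4) in the control libraries, and Calu, an inhibitor of the carboxylation system, with 183 ± 12.9 CPM (SD, n = 3) and 152 ± 21.7 CPM (SD, n = 4). Ggcx, the carboxylase, was at 28.3 ± 4.17 CPM (SD, n = 3) and 31.4 ± 9.10 CPM (SD, n = 4), and was named after its values were seen. Gprc6a, proposed as an osteocalcin receptor, had 0 or 1 count in each library.

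Among markers of other cells in the tissue, some genes of muscle, erythroid cells, neutrophils, endothelium and the B lineage reached edgeR's unadjusted threshold between the genotype labels. Of all genes 4.63% were higher and 5.03% lower at that threshold. All 10 skeletal muscle markers had a fold change above 0, 5 of them at an unadjusted p under 0.05, and their summed level was 25081 to 40014 CPM in the f/f-labelled libraries and 11587 to 27395 CPM in the controls. Myh4, a fast muscle myosin, had a log2 fold change of 1.47 (SE 0.54), and Tnnt3, Tnni2, Ckm and Myl1 had 0.80 to 1.13. All 8 measured erythroid markers had a fold change below 0, 5 of them at an unadjusted p under 0.05, with sums of 4417 to 10118 CPM against 11519 to 32126 CPM. Tspo2, an erythroid gene, had a log2 fold change of -1.10 (SE 0.20), and Hba-a1, Alas2, Slc4a1 and Klf1 had -1.34 to -0.95. All 10 neutrophil markers were also below 0, with 3 (Ltf, Mmp8 and Prtn3) at an unadjusted p under 0.05 and sums of 12542 to 15727 CPM against 18069 to 21027 CPM. Each gene named here had edgeR's adjusted p = 0.511. At an adjusted p under 0.05 the limma pipeline called 9 of the 10 muscle markers higher, 4 of the 8 erythroid markers lower and 1 of the 10 neutrophil markers lower, and DESeq2 called 1 erythroid marker lower. Without controls 1 and 4 the median log2 fold changes were 0.58 for muscle (0.82 with all libraries), -0.59 for erythroid (-0.97) and -0.38 for neutrophil markers (-0.51). No defining marker of these lists was at 0. Their part in the values of the osteoblast genes was not tested.

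For the remaining marker lists the summed levels of the groups overlapped, as they did for muscle. Of 10 osteocyte markers 6 had a fold change above 0 and 4 below, with 0 at an unadjusted p under 0.05 and sums of 352 to 587 CPM against 231 to 809 CPM. The osteoclast sums were 1184 to 1249 CPM against 762 to 2655 CPM, and the adipocyte sums 295 to 486 CPM against 182 to 651 CPM, with 0 of 8 at an unadjusted p under 0.05 by edgeR in each list. Of 8 chondrocyte markers 5 were tested, with 0 at that threshold, Matn1 and Matn3 at 7 counts or fewer in every library, and sums of 319 to 592 CPM against 165 to 1116 CPM. Control 1 was the highest library for 8 of the 10 osteocyte markers, 6 of the 8 osteoclast markers and 5 of the 8 adipocyte markers. The median log2 fold changes of these lists turned on that library and on control 4. With all libraries and without both they were 0.09 and 0.80 for osteocyte, -0.11 and 0.64 for osteoclast, 0.0026 and 0.99 for chondrocyte and -0.10 and 1.19 for adipocyte markers. Without control 1 alone the adipocyte median was 1.22. The limma pipeline called 5 of the 8 adipocyte markers and 1 of the 10 osteocyte markers higher at an adjusted p under 0.05, and 0 of the osteoclast and chondrocyte markers. Of 10 endothelial markers 3 (Flt1, Tek and Emcn) were higher at an unadjusted p under 0.05, with log2 fold changes of 0.44 to 0.59, and the sums were 1137 to 1249 CPM against 925 to 1674 CPM. Of 10 B lineage markers 1, Ebf1, was higher at that threshold, with a log2 fold change of 0.56 (SE 0.16), and the sums were 409 to 419 CPM against 266 to 460 CPM. The limma pipeline called 5 of the 10 endothelial and 5 of the 10 B lineage markers higher at an adjusted p under 0.05. Without controls 1 and 4 their median log2 fold changes were 0.43 and 0.65, against 0.25 and 0.18 with all libraries.

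Genes whose profile over the 7 libraries was most like that of a member were found by the root mean square difference of centred log2 CPM. The points share libraries and depth, so this is a description. Nearest to Runx2 were Ctnnb1 (0.03), which encodes beta-catenin, Ids (0.04), Spata13 (0.06), Frmd4b (0.06) and Chst11 (0.07), against a median of 0.36 over all other genes. Nearest to Sp7 were Zbtb7c (0.10), Cd276 (0.12), Apcdd1 (0.12), Ptgfrn (0.13) and Clec11a (0.14), against a median of 0.67, and Dlx3 was at 0.20. Outside the members, nearest to Bglap were Col1a2 (0.13), Cgref1 (0.15), Pcolce (0.16), an enhancer of procollagen processing, Serpinf1 (0.16) and Cpz (0.17), against a median of 0.84. Bglap2 was at 0.05 from Bglap, Bglap3 at 0.34, Sp7 at 0.35, Dlx3 at 0.37, Dlx5 at 0.60 and Runx2 at 0.74. Among the tested factors Runx2 thus lay farthest from Bglap by this measure, though nearer than the median gene. Sp7 lay nearest, with Dlx3 close behind. The measure also counts how far a gene varies, and the SD of log2 CPM was 0.167 for Runx2 and 0.880 for Bglap. It therefore does not rank the genes by the shape of their profiles alone.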

How the data were processed

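RNA from flushed femora of 3 Dmp1Cre.EfnB2f/f and 4 Dmp1Cre mice was sequenced by the authors as paired-end reads, mapped to mm10 with Rsubread and counted with featureCounts on its built-in annotation. The authors deposited raw counts per Entrez gene, 1 file per library and 1 table, which held the same counts, without normalization or pooling. The submitters' processing notes name bcl2fastq 2.17.1.14. Versions of the other tools, the strand setting and the handling of reads that fit several places are not given in the sources used here.

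A filter of 0.65 CPM or more in 3 or more libraries kept 16302 genes, and classes removed in the study were left out, giving 15098. Positions and gene types came from RefSeq (GRCm38.p6), in which 25275 of 27179 Entrez genes were found. Genotypes were compared with edgeR 4.0.16 in R 4.3.3 (TMM, robust quasi-likelihood test, no covariate) and Benjamini-Hochberg adjustment over all tested genes at a threshold of 0.05. Fold changes are log2, libraries labelled Dmp1Cre.EfnB2f/f over controls. Single values were tested with a two-sided exact permutation test over 35 splits, whose smallest p is 0.0286. Levels are TMM-normalized CPM, or RPKM between genes. Samples are separate mice, and counting intervals cover counting error only. At these library totals a gene with 0 counts could be at up to 0.155 to 0.176 CPM.

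Alternatives were DESeq2 1.42.0, the study's limma pipeline (limma 3.58.1, quantile normalization, sample weights, prior count 2) without its day block, DESeq2 size factors in edgeR, upper quartile or library size scaling, no filter, a minimum of 10 counts throughout, no removal of gene classes, a block for replicate number or for parent cross, and omission of each library in turn. The limma pipeline without weights and edgeR without controls 1 and 4 were chosen after seeing the data. The script was tested on simulated data. Same-numbered libraries deviated from their group means with correlations of -0.145, 0.0631 and -0.419. These correlations gave no sign that the numbers pair the samples, but so few values cannot decide it. The mice numbered 3 shared a parent cross.

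The members and gene lists were chosen with earlier results of these data known. Named were the 8 genes, of each list the genes at an unadjusted p under 0.05 (up to 5) or else the 2 with the highest CPM, the 5 nearest profiles for Runx2, Sp7 and Bglap, and Efnb2. Genes outside this rule are marked. A gene that the rule names is not reported here.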

Additional observations from a re-analysis of the deposited data

Results flagged for a closer look

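Msx2 was flagged because 1 of the 4 controls stood apart from the others: control 1 had 2 counts and the other 3 controls had 0, so the gap took up a share of 1 of the range of the group, above Dixon's 95% critical value. Of 12 groups of values tested in this way chance flags about 1 in 20. All of these counts lie under the limit of 3 counts, and Msx2 entered no test.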

How the results depend on the processing

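0 of the 7 tested genes passed an adjusted p of 0.05 in any alternative, and Dlx5 kept its direction in all 19. The signs of the other 6 turned under some of them. The log2 fold change of Runx2 was -0.0125 with DESeq2, -0.0052 with the limma pipeline and -0.0124 with DESeq2 size factors, that of Sp7 0.29 with limma, 0.0014 with limma without weights and 0.036 with library size only, and those of Bglap, Bglap2 and Bglap3 with limma 0.65, 0.52 and 0.41. With controls 1 and 4 left out the values were 0.77 for Sp7, 0.84 for Dlx3, 0.70 for Bglap, 0.69 for Bglap2 and 1.26 for Bglap3. With the parent cross as a block, which rests on 1 mouse of each genotype, they were 1.46 for Sp7, 1.81 for Dlx3, 1.04 for Bglap, 1.13 for Bglap2 and 2.18 for Bglap3. The numbers of the replicate block gave no sign of pairing the samples. With that block the values were -0.0094 for Runx2, 0.14 for Sp7, 0.013 for Dlx3 and 0.32 for Bglap3. With 1 library left out at a time they ranged from -0.064 to 0.11 for Runx2, -0.47 to 0.37 for Sp7, -0.77 to 0.28 for Dlx3, 0.16 to 0.83 for Dlx5, -0.90 to -0.06 for Bglap, -0.87 to -0.05 for Bglap2 and -0.62 to 0.37 for Bglap3.

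Across the table edgeR called 0 genes, and 1459 had an unadjusted p under 0.05. DESeq2 called 24 higher and 48 lower, and the limma pipeline 1131 higher and 1115 lower. Without sample weights the limma pipeline called 0 in either direction. The replicate block gave 1 higher and 0 lower, and the fit without controls 1 and 4 called 1 higher and 1 lower. With 1 library left out the calls ranged from 0 to 1 higher and from 0 to 2 lower. Apart from the limma weights and the libraries left out, whose construction shows what changed, the cause was not tested. The largest shift of the median of all genes by a scaling was 0.084 (log2), with library size only. Depth limits Msx2, while each of the other 7 genes had 13 or more counts in every library, and the precision of a comparison rests on 3 and 4 mice.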
